A study of Mus musculus with 12 samples.

Results

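Genes of the synaptic vesicle and exocytosis machinery were examined in mouse neuroendocrine thyroid carcinomas. They were taken by symbol: synaptotagmins (Syt) and synaptotagmin-like proteins (Sytl), syntaxins (Stx), VAMPs, SNAPs, Rab3a to Rab3d, complexins (Cplx), Unc13 proteins, synapsins (Syn), Sv2 proteins and synaptophysin (Syp). The tables held 68 such genes among 23284, and 62 of them had counts high enough to be tested, among 14989 tested genes. The primary tumours came from engineered mice, and the series asked which genes Crebbp regulates. Crebbp acetylates histones and acts as a coactivator of transcription factors. By genotype label, 7 tumours were Rb1/Trp53 (RP) and 5 were Rb1/Trp53/Crebbp (RPC). Both groups therefore share the retinoblastoma and p53 genes in their genotype, and no normal thyroid was among the samples. The sources used here do not give the promoter that drives the recombinase, the age and strain of the mice, or whether tumours came from separate mice. A p-value below measures the spread between these tumours, which may in part be technical.

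Regulated exocytosis moves hormone or transmitter from a stored vesicle to the outside of the cell. A SNARE protein on the vesicle (VAMP) zips together with SNAREs on the plasma membrane (a syntaxin and a SNAP), after Rab3 or Rab27 has brought the vesicle to its site and an Unc13 protein has primed it. Complexin clamps the assembled complex, and synaptotagmin, the calcium sensor, triggers fusion. Thyroid C cells, the neuroendocrine cells of the gland, use this machinery to release calcitonin from dense-core granules, and synaptophysin is a routine pathology marker of neuroendocrine tumours.

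Polyadenylated RNA was sequenced and reads were counted per gene. Gene counts per tumour came to 9.11 M to 57.3 M in RP and 9.14 M to 20.5 M in RPC tumours. The members took 0.395% to 0.592% of them. All levels are CPM, a gene's count per 1 M gene counts of a library scaled by the TMM method, and 3 counts, used as the floor of detection, correspond to 0.0502 to 0.312 CPM depending on the tumour. Defining markers of neuroendocrine cells were present in every tumour: Chga, the granule protein chromogranin A, at 1717 to 10018 CPM, and Calca, the calcitonin gene, at 19994 to 215750 CPM. Crebbp itself stood at 54.6 ± 20.04 CPM (SD, n = 7) in RP and 53.9 ± 4.19 CPM (SD, n = 5) in RPC tumours (edgeR adjusted p = 0.957). A count over the whole gene cannot show whether some exons are lost, so it checks neither the labels nor the protein, and each direction below is between groups as labelled. In bulk tumour RNA, fewer cells of a type and less RNA per cell cannot be told apart.

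The machinery was expressed broadly, and levels within a family differed widely between genes. To compare genes, CPM were divided by exon length in kilobases, which was available for 67 members. Cplx2, a complexin, was highest at 227 ± 45.6 CPM per kilobase (SD, n = 7) in RP and 253 ± 23.0 (SD, n = 5) in RPC tumours. Snap25, the neuronal plasma membrane SNARE, followed at 139 ± 13.5 (SD, n = 7) and 102 ± 22.9 CPM per kilobase (SD, n = 5), then synaptophysin at 88.1 ± 12.2 and 81.0 ± 16.4. Syt7, a calcium sensor of slow release from granules, stood at 76.6 ± 16.7 and 68.1 ± 6.53 CPM per kilobase, and Vamp2, the main vesicle SNARE, at 63.2 ± 14.5 and 70.6 ± 12.6. The ranges of these last 3 genes overlap, so their order among themselves is not fixed. By the mean of all 12 tumours, Sytl1, a Rab27 effector, was next at 63.3 ± 6.87 and 44.3 ± 11.2 CPM per kilobase. Rab3a, at 52.3 ± 11.1 and 55.3 ± 3.92, and Stx4a, at 57.6 ± 12.8 and 47.2 ± 4.64, lay close to it. The order of these genes differed between the groups: in RPC tumours Rab3a and Stx4a had higher means than Sytl1.

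**Figure D1:**
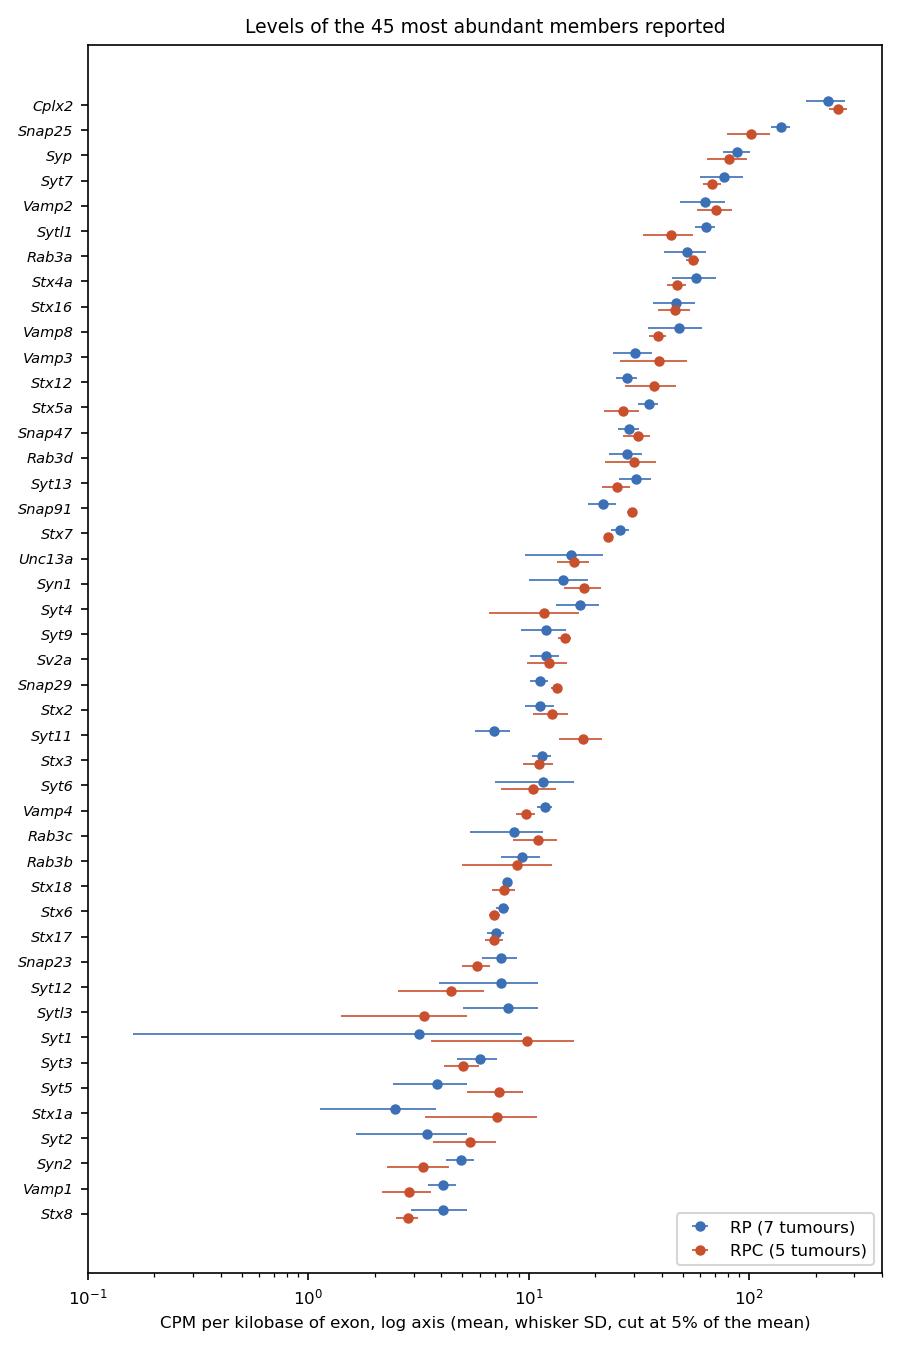
Mean level of the most abundant members in CPM per kilobase of exon on a log axis (blue, 7 RP tumours; orange, 5 RPC tumours; whiskers, SD, shortened on the low side where they would reach 0). Cplx2 lies highest at 227 and 253 CPM per kilobase. Syt11 lies at 6.96 in RP against 17.6 in RPC tumours, and the lower Syt1 and Stx1a at 3.19 against 9.84 and 2.46 against 7.17.

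The share of the leading gene in the summed level of its family differed between families. Sv2a, a vesicle glycoprotein, took 96.0% ± 1.32 (SD, n = 7) of the summed Sv2 level in RP tumours and 85.4% ± 6.51 (SD, n = 5) in RPC tumours. Unc13a, the priming factor of neuronal synapses, took 75.6% ± 5.13 (SD, n = 7) and 81.8% ± 2.63 (SD, n = 5) of the Unc13 level. Snap25 took 66.8% ± 1.92 (SD, n = 7) of the SNAP level in RP tumours, with a range of 64.1% to 69.0%, and 55.7% ± 3.91 (SD, n = 5) in RPC tumours, with a range of 51.1% to 61.4%. These ranges did not overlap, and neither did those of the Sv2a share (94.0% to 97.6% in RP and 76.9% to 91.5% in RPC tumours). The SNAP sum includes Snap91, a clathrin adaptor and no SNARE, which took 10.4% of it in RP and 16.4% in RPC tumours. On average, no single gene held most of the level among VAMPs, synaptotagmins and syntaxins, though the Vamp2 share reached 52.1% in RP and 51.5% in RPC tumours. Vamp2 took 39.5% ± 8.49 (SD, n = 7) and 43.5% ± 6.59 (SD, n = 5) of the VAMP level, Syt7 41.2% ± 3.34 and 36.1% ± 1.97 of the synaptotagmin level, and Stx4a, a widely expressed plasma membrane syntaxin, 22.7% ± 3.27 and 19.6% ± 2.12 of the syntaxin level. The other end of the scale held 6 members too low to test: Cplx3, Cplx4, Stx19, Syt8, Unc13c and Vamp7. Vamp7 was listed at 0 in all 12 tumours. It was also the member without an exon length, so it enters no VAMP share. Such a value cannot tell a silent gene from one missing in the reference used for counting.

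Among 11 core genes of calcium-triggered release (Syt1, Snap25, Stx1a, Vamp2, Syp, Sv2a, Syn1, Rab3a, Cplx1, Cplx2 and Unc13a) the test (edgeR quasi-likelihood, adjusted p under 0.05) called 2 higher, Cplx1 and Stx1a, and 1 lower, Snap25, where 18.3% of all tested genes were called. The limma voom fit, which called 42.4% of all genes, also called Syt1, Cplx2 (log2 fold change 0.31; adjusted p = 0.0464) and Syn1 (0.50; adjusted p = 0.0238). Cplx2 ran from 930.2 to 1540 CPM in RP tumours, with a median of 989, and stood at 1432, 1154, 1253, 1155 and 1249 CPM in RPC tumours 1 to 5 (log2 fold change 0.16 ± 0.148 SE; adjusted p = 0.459). The RPC values all lay inside the RP range. Vamp2 ran from 137 to 240.2 CPM in RP, with a median of 162, and from 167 to 249 CPM in RPC tumours (log2 fold change 0.16 ± 0.164 SE; adjusted p = 0.508). Synaptophysin was at 204 to 299 CPM in RP and 168 to 268 CPM in RPC tumours (log2 fold change -0.12 ± 0.139 SE; adjusted p = 0.555), again with overlapping groups. Rab3a, the GTPase that docks synaptic vesicles, Sv2a and Unc13a had log2 fold changes of 0.08 ± 0.135, 0.06 ± 0.145 and 0.05 ± 0.231 (SE). Syn1, the synapsin that ties vesicles to the cytoskeleton, had 35.5 to 71.4 CPM in RP and 43.7 to 73.5 CPM in RPC tumours (log2 fold change 0.32 ± 0.197 SE; adjusted p = 0.258).

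Syt1, the fast calcium sensor of synapses, was the core gene whose value depended most on 1 tumour. In 6 RP tumours it lay between 2.19 and 8.18 CPM, and in RP tumour 3 it stood at 82.5 CPM. RPC tumours 1 to 5 held 27.2, 100.4, 40.6, 30.0 and 39.2 CPM. Each RPC tumour was thus above the other 6 RP tumours, and RP tumour 3 was above 4 of the 5 RPC tumours. With all tumours the log2 fold change was 1.65 ± 0.892 (SE) and not called (adjusted p = 0.202), and without RP tumour 3 it was 3.49 and called (adjusted p = 0.000906). Other fits called it too: DESeq2 gave 2.90 (adjusted p = 1.75e-06) and limma voom with sample weights 3.20 (0.000556). With the stromal and immune score as a covariate, edgeR gave 4.36 (0.0199). All these values exceed the 1.65 of the main fit, where the group means were 15.4 and 47.5 CPM. RP tumour 3 had the highest stromal and immune score of all tumours, at 1.49, and sample weights can lower the part of 1 tumour. How far each fit set RP tumour 3 aside was not tested, so these calls are no separate support. RP tumour 3 also had the highest macrophage score and the lowest thyroid follicular score of the RP group, at 2.11 and -0.285 (means of z-scored log2 CPM over each marker list), and a neuron score of -0.936, below the mean of all tumours. The part of these markers in the Syt1 value was not tested.

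**Figure D2:**
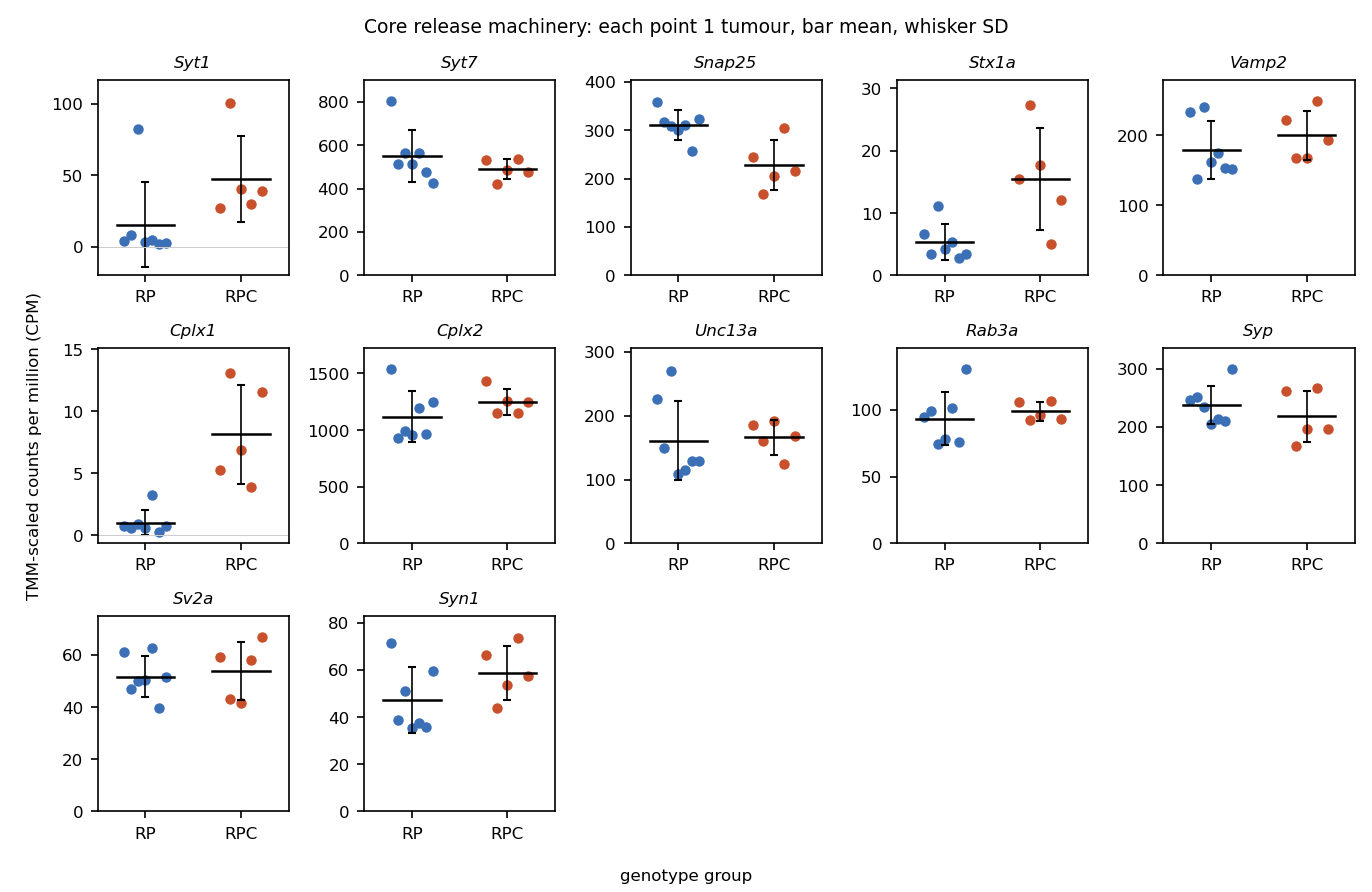
CPM of core release genes and Syt7 in each tumour (points), with the group mean (bar) and SD (whisker), on linear axes. RP tumour 3 stands apart at 82.5 CPM for Syt1, while the Cplx2, Vamp2, Syp and Rab3a points of both groups overlap.

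Across the whole machinery, 18 of 62 tested members passed the test between genotypes (29%; edgeR quasi-likelihood test, adjusted p under 0.05), where 18.3% of all tested genes did. Of the 62 members, 9 were higher in RPC tumours, against 1445 of 14989 tested genes (9.64%). Another 9 of 62 were lower, against 1291 of 14989 (8.61%). The median log2 fold change of the members was -0.05 and that of all tested genes -0.02, and the median size was 0.331 against 0.286. The machinery thus did not move in 1 direction: 28 members had a log2 fold change above 0 and 34 below. Changes of at least 2-fold were found in 6 called members that rose (Cplx1, Sv2b, Sv2c, Syt16, Stx1a and Syt11) and 2 that fell (Sytl3 and Vamp5). The group ranges did not overlap for 7 of 62 members, 6 with every RPC tumour above and 1 (Vamp4) with every RPC tumour below. Among all 14989 tested genes this held for 938 (6.26%), 542 above (3.62%) and 396 below (2.64%).

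By family, Sv2 proteins had 2 of 3 tested members higher and none lower, and synaptotagmins 3 of 16 higher and none lower. Synaptotagmin-like proteins had 3 of 5 lower and none higher, and VAMPs 3 of 6 lower and none higher. Complexins had 1 of 2 higher, and synapsins with synaptophysin 1 of 4 lower. SNAPs had 2 of 5 higher and 1 lower, the higher ones being Snap29 and Snap91, of which Snap91 is a clathrin adaptor (AP180) and no SNARE. Syntaxins had 1 of 14 higher and 1 lower. None of 4 Rab3 genes and none of 3 tested Unc13 genes passed. The shares called of synaptotagmins (18.8%) and syntaxins (14.3%) were near the 18.3% of all tested genes. Those 2 counts are therefore no result about their families. All these family counts are small and describe the lists only.

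**Figure D3:**
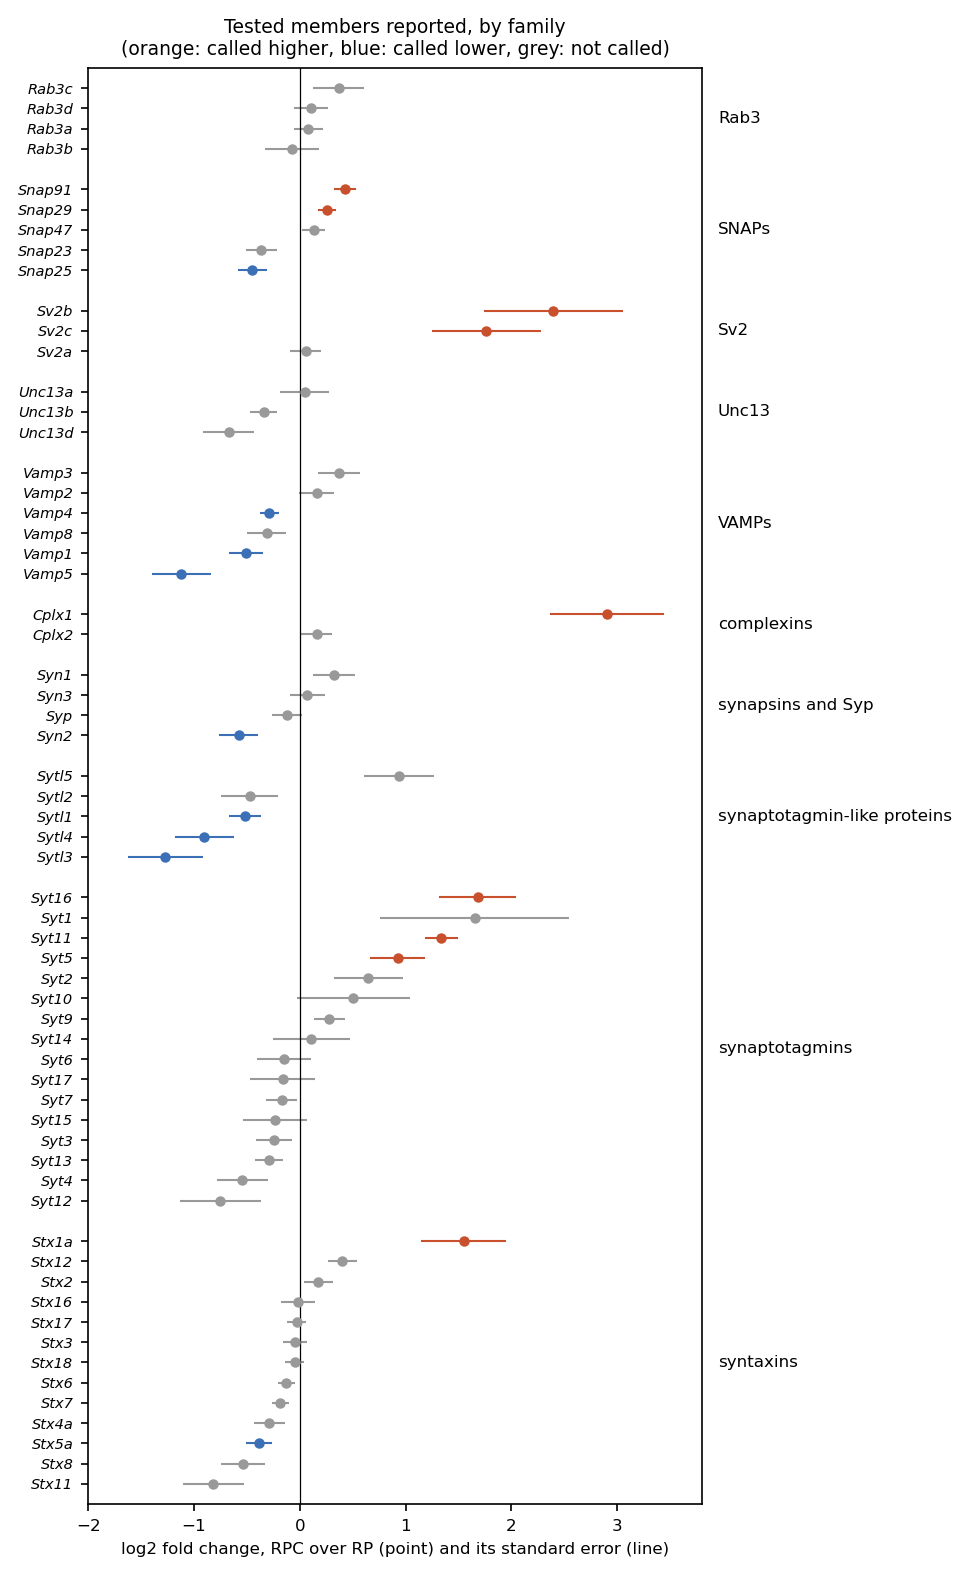
Log2 fold change of the tested members reported here, RPC over RP (points), with its standard error (lines), grouped by family (orange, higher; blue, lower; grey, not called). Cplx1, at 2.90, and Sv2b, at 2.40, lie farthest right, and Sytl3, at -1.27, farthest left.

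Promoters are shown for the members that changed at least 2-fold and have a single promoter window in the RefSeq table (GRCm38.p6), and for Syn1, whose window was the only one of the set with a full cAMP response element, the site bound by CREB, the factor after which Crebbp is named. Each window is the 250 bases before the RefSeq start, 5′ to 3′ on the strand RefSeq gives. The bases after the start were found near the start of a GENCODE transcript of the same gene for each of them but Sytl3. Capitals mark TGACGTCA (the full element), TGACG (its leading part), CAGCTG (an E-box form bound by basic helix-loop-helix factors) and GGGCGG (a GC box), each on either strand. Windows existed for 53 of 68 members, 69 windows in all; members without one include Cplx4, Snap25, Syn3, Sytl2, Syt12, Syt13, Syt17, Syt4, Syt5, Syt7, Unc13d, Vamp2, Vamp3 and Vamp7. The higher members Cplx1 (chr5:108550028-108550277, minus strand), Stx1a (chr5:135023232-135023481, plus), Sv2c (chr13:96132578-96132827, minus), Syt11 (chr3:88772600-88772849, minus) and Syt16 (chr12:73997527-73997776, plus) read as follows.
Cplx1: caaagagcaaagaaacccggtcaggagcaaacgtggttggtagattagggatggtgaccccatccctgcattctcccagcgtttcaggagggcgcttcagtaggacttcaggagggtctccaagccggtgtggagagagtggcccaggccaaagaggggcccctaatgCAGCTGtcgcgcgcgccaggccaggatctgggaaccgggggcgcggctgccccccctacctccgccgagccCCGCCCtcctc
Stx1a: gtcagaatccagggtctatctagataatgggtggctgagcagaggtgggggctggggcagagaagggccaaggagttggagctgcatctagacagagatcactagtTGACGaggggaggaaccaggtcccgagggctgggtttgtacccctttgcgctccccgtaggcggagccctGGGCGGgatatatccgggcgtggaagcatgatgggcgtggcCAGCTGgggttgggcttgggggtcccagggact
Sv2c: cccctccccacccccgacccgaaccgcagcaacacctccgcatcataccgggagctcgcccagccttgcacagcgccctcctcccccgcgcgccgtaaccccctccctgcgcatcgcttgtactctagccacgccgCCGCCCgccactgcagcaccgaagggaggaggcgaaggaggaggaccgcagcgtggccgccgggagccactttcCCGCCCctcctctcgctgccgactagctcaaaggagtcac
Syt11: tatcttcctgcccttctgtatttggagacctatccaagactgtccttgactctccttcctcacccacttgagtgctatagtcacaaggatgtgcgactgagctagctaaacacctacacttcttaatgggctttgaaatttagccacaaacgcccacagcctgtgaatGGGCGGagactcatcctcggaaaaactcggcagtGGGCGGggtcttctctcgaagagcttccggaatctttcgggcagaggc
Syt16: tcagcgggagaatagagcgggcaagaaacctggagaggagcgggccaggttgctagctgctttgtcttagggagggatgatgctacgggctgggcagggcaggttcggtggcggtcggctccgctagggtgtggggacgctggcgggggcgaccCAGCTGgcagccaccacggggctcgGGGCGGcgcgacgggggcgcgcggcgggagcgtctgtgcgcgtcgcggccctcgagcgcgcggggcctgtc
The lower members Sytl3 (chr17:6658809-6659058, plus) and Vamp5 (chr6:72380469-72380718, minus), and Syn1 (chrX:20920919-20921168, minus), which did not pass the test, read as follows.
Sytl3: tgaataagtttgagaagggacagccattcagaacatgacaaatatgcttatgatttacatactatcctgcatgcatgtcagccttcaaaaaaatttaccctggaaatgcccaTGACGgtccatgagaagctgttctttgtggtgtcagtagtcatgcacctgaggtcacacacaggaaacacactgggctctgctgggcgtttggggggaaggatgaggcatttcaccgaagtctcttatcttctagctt
Vamp5: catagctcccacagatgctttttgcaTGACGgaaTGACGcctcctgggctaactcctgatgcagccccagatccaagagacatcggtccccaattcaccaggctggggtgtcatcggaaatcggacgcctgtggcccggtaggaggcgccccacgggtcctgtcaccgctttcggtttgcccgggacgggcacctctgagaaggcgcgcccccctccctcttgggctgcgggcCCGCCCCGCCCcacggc
Syn1: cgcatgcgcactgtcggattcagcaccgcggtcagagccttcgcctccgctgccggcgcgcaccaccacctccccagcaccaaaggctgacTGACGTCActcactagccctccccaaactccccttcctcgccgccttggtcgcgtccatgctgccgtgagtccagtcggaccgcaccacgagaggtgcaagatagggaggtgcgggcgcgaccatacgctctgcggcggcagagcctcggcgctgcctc
Of the 5 higher promoters, only that of Stx1a held TGACG, while both lower ones did, Vamp5 at 2 places. Over all called members, 1 of 11 windows of higher and 4 of 11 windows of lower members held TGACG, against 17.8% of all 32851 windows and 14 of 69 of the members. TGACGTCA was in 1.55% of all windows. CAGCTG was in 19 of 69 member windows (27.5%) against 13.0% of all, among the called members in Cplx1, Stx1a, Syt16 and Sytl1. GGGCGG was in 39 of 69 (56.5%) against 32.7% of all. TGACG lies within TGACGTCA, so Syn1 counts for both. Windows of 1 gene overlap in part, and a match is only the presence of the letters.

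Cplx1, the complexin typical of fast synapses, rose most. It ran from 0.244 to 3.26 CPM in RP tumours (3 to 195 counts), with a median of 0.761, and stood at 5.29, 13.1, 6.84, 3.91 and 11.6 CPM in RPC tumours 1 to 5. All RPC tumours were above all RP tumours, and RP tumour 5, the deepest library, was the highest RP value. The log2 fold change was 2.90 ± 0.538 (SE), or 7.48-fold (adjusted p = 0.00722). Even so, Cplx1 made up only 1.47% ± 0.770 (SD, n = 5) of the complexin level in RPC tumours and 0.200% ± 0.187 (SD, n = 7) in RP tumours. Cplx2 made up nearly all of the complexin RNA in both groups.

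Sv2b and Sv2c, the minor paralogues of Sv2a, rose from low levels. Sv2b was at 0.208 to 3.59 CPM in RP tumours, with a median of 1.056, and at 4.54, 3.94, 3.82, 17.7 and 15.4 CPM in RPC tumours 1 to 5 (log2 fold change 2.40 ± 0.661 SE; adjusted p = 0.0284). The groups did not overlap, though the highest RP and lowest RPC values lay close together, and RP tumours 3 and 4 held only 2 and 4 counts. Sv2c was at 0.773 to 6.45 CPM in RP, with a median of 1.14, and at 4.66, 5.68, 3.82, 9.68 and 11.6 CPM in RPC (log2 fold change 1.76 ± 0.514 SE; adjusted p = 0.0340). RP tumour 3, at 6.45 CPM, was above 3 RPC tumours, and leaving it out gave a log2 fold change of 2.32. Their share of the Sv2 level rose with them: Sv2b took 2.16% ± 1.57 (SD, n = 7) in RP and 9.55% ± 5.41 (SD, n = 5) in RPC tumours. The calls of both genes were lost when any 1 of certain tumours was left out: RP tumours 2 and 6 and RPC tumours 4 and 5 for Sv2b (adjusted p 0.0544 to 0.0644), and those 4 tumours with RP 4 and 7 and RPC 1 and 2 for Sv2c (0.0532 to 0.0849).

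Among synaptotagmins, Syt11, Syt16 and Syt5 rose, and Syt11 had the smallest p of all members. Syt11, a synaptotagmin that does not bind calcium, ran from 28.3 to 45.4 CPM in RP, with a median of 33.9, and stood at 84.6, 105.1, 80.4, 67.2 and 116.7 CPM in RPC tumours 1 to 5. The groups lay well apart, and the log2 fold change was 1.34 ± 0.155 (SE), or 2.53-fold (adjusted p = 0.000825). Syt16, an atypical family member, was at 1.58 to 8.97 CPM in RP, with a median of 3.44, and at 9.83, 19.7, 11.8, 10.8 and 14.1 CPM in RPC (log2 fold change 1.68 ± 0.362 SE; adjusted p = 0.0126), without overlap. Syt5, a calcium-binding family member, was at 5.90 to 14.6 CPM in RP, with a median of 7.81, and at 23.3, 21.2, 15.1, 16.9 and 10.6 CPM in RPC (log2 fold change 0.93 ± 0.260 SE; adjusted p = 0.0299). RPC tumour 5 lay inside the RP range for Syt5. The Syt5 call was lost without any 1 of RP tumours 4 and 6 and RPC tumours 1 and 2 (adjusted p 0.0572 to 0.0867), whereas Syt11 and Syt16 kept theirs with each single tumour left out. Syt7, the most abundant synaptotagmin, was not called, at 551 ± 120.2 CPM (SD, n = 7) and 489.5 ± 47.0 CPM (SD, n = 5), with RP tumour 1 highest at 801 CPM.

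Stx1a, the plasma membrane syntaxin that pairs with Snap25, was at 2.84 to 11.1 CPM in RP tumours, with a median of 4.28, and at 15.5, 27.3, 17.7, 4.97 and 12.02 CPM in RPC tumours 1 to 5. RPC tumour 4 lay inside the RP range and the other 4 lay above it. The log2 fold change was 1.55 ± 0.402 (SE; adjusted p = 0.0229), and the call was lost without RPC tumour 1 or RPC tumour 2 (adjusted p at most 0.0777). Smaller rises were found in Snap91, which builds clathrin coats at the synapse, and in Snap29, a widely expressed SNARE. Snap91 ran from 75.5 to 111.6 CPM in RP and from 117 to 135 CPM in RPC tumours (log2 fold change 0.43 ± 0.105 SE; adjusted p = 0.0193). Snap29 ran from 32.6 to 42.7 CPM and from 43.5 to 50.3 CPM (log2 fold change 0.26 ± 0.0837 SE; adjusted p = 0.0481). Neither pair of ranges overlapped, but the Snap29 call was lost without any 1 of 10 tumours, all but RP 1 and RPC 4 (adjusted p 0.0506 to 0.126), whereas that of Snap91 held with each single tumour left out.

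**Figure D4:**
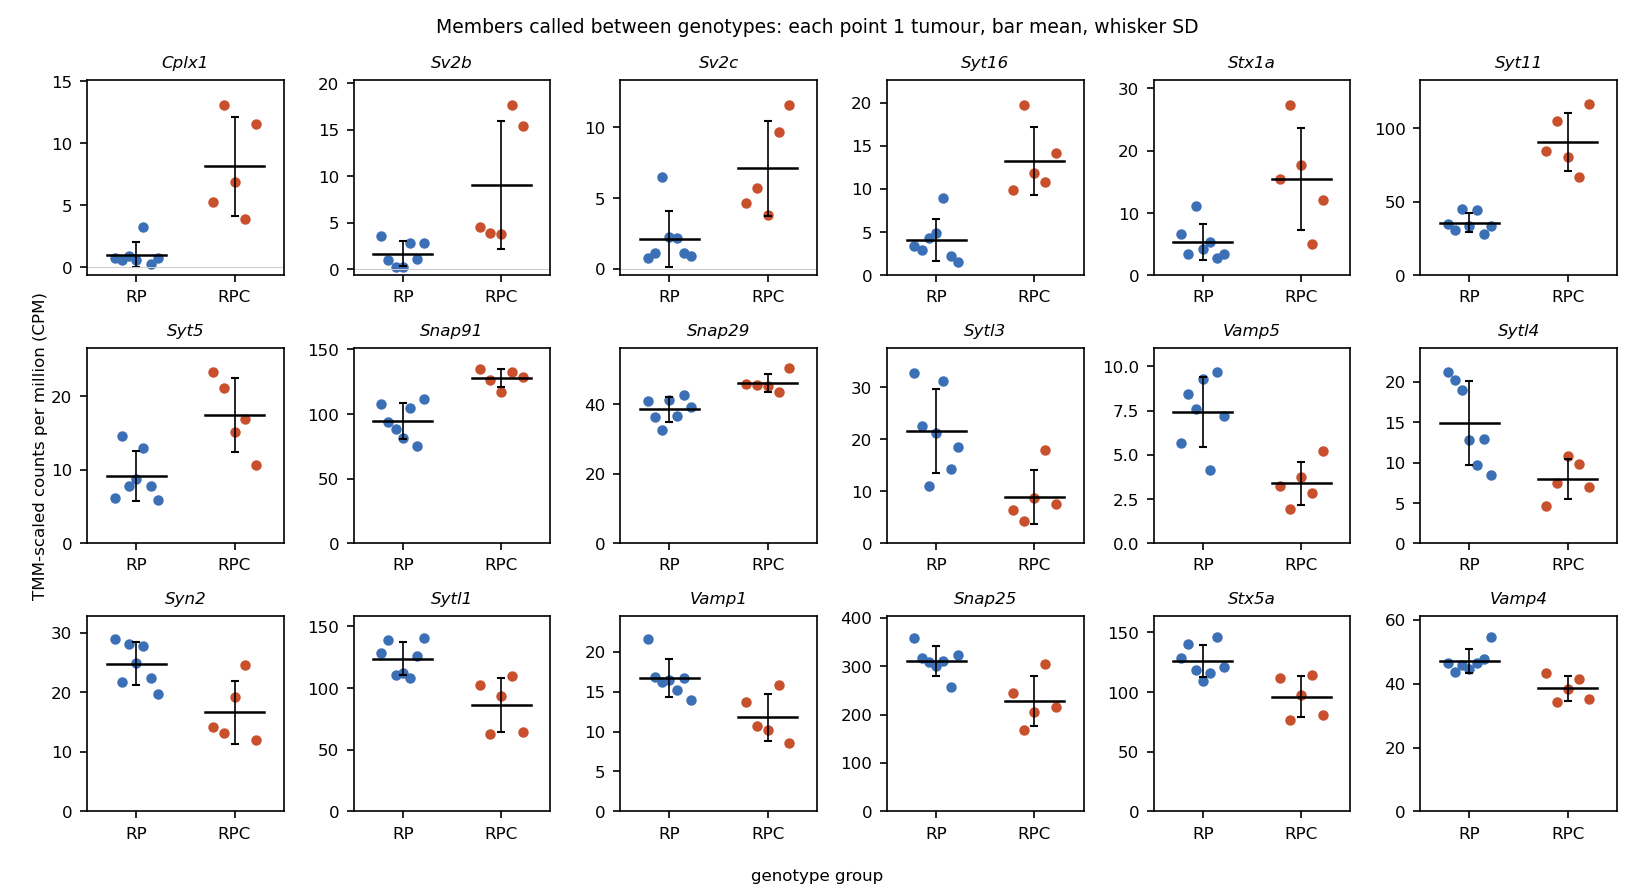
CPM of the 18 called members in each tumour (points), with the group mean (bar) and SD (whisker), on linear axes; the first 9 panels are higher in RPC tumours and the last 9 lower. Syt11 lies at 28.3 to 45.4 CPM in RP and 67.2 to 116.7 CPM in RPC tumours, and Vamp4 is the only lower member without overlap.

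The members that fell were led by synaptotagmin-like proteins, which tether granules through Rab27. Sytl3 was at 11.03 to 32.8 CPM in RP, with a median of 21.2, and at 6.37, 4.40, 8.73, 17.8 and 7.60 CPM in RPC tumours 1 to 5 (log2 fold change -1.27 ± 0.354 SE; adjusted p = 0.0291). RPC tumour 4 lay inside the RP range and the other 4 below it. Sytl4 (granuphilin), which docks insulin granules in beta cells, was at 8.495 to 21.2 CPM in RP, with a median of 12.9, and at 4.66, 7.51, 10.8, 9.86 and 6.95 CPM in RPC (log2 fold change -0.90 ± 0.279 SE; adjusted p = 0.0419). Sytl1, the most abundant of them, was at 108 to 140.4 CPM in RP, with a median of 126, and at 102.1, 62.4, 93.6, 109.5 and 64.2 CPM in RPC (log2 fold change -0.52 ± 0.151 SE; adjusted p = 0.0342). RPC tumours 3 and 4 reached into the RP range for Sytl4, and RPC tumour 4 for Sytl1. The family sum fell from 76.2 ± 7.85 (SD, n = 7) to 51.7 ± 12.5 (SD, n = 5) CPM per kilobase, a sum that Sytl1 dominates. Sytl5 went the other way without passing the test (log2 fold change 0.94 ± 0.332 SE; adjusted p = 0.0658), and with RP tumour 1 left out, which was highest of RP at 4.71 CPM, it was 1.24 and called (adjusted p = 0.0103). The Sytl3 call was lost without any 1 of RP tumours 2 and 4 and RPC tumours 1, 2, 3 and 5 (adjusted p 0.0513 to 0.0723). That of Sytl4 was lost without any 1 of RP 1, 2, 3, 4 and 6 and RPC 1, 2 and 5 (0.0526 to 0.0963), and that of Sytl1 without any 1 of RP 2, 4, 6 and 7 and RPC 2, 3 and 5 (0.0522 to 0.0810).

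Among vesicle SNAREs, Vamp5, Vamp1 and Vamp4 fell. Vamp5, known from muscle and other non-neuronal cells, was at 4.15 to 9.67 CPM in RP, with a median of 7.60, and at 3.21, 1.92, 3.77, 2.84 and 5.21 CPM in RPC tumours 1 to 5 (log2 fold change -1.12 ± 0.276 SE; adjusted p = 0.0197). RPC tumour 5 alone lay inside the RP range, and the call held with each single tumour left out. Vamp1, the close paralogue of Vamp2, was at 14.0 to 21.7 CPM in RP and 8.54 to 15.8 CPM in RPC tumours (log2 fold change -0.51 ± 0.164 SE; adjusted p = 0.0483). Vamp4, of the trans-Golgi network, was at 43.5 to 54.7 CPM in RP and 34.1 to 43.3 CPM in RPC tumours, so that the ranges just failed to meet (log2 fold change -0.29 ± 0.0885 SE; adjusted p = 0.0405). Leaving out any 1 of RP tumours 1, 2, 4, 6 and 7 and RPC tumours 1, 2, 3 and 5 ended the Vamp1 call (adjusted p 0.0513 to 0.110), and any 1 of RP 2, 4, 6 and 7 and RPC 2, 3 and 5 that of Vamp4 (0.0530 to 0.0924). Vamp3, by contrast, was not called and had 0.37 ± 0.197 (log2, SE; adjusted p = 0.197).

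Snap25 was at 257 to 358 CPM in RP tumours, with a median of 310.1, and at 244, 168, 206, 305 and 216 CPM in RPC tumours 1 to 5 (log2 fold change -0.45 ± 0.137 SE; adjusted p = 0.0406). RPC tumour 4 lay inside the RP range and the other 4 below it. The plasma membrane SNARE partners thus changed in opposite directions, Stx1a upwards from a low level and Snap25 downwards from a high one. Stx5a, a Golgi syntaxin, was at 109 to 146 CPM in RP and 76.7 to 114 CPM in RPC tumours (log2 fold change -0.39 ± 0.120 SE; adjusted p = 0.0431). Syn2, a synapsin, was at 19.7 to 29.0 CPM in RP and 11.9 to 24.6 CPM in RPC tumours (log2 fold change -0.58 ± 0.183 SE; adjusted p = 0.0451). These 3 calls were close to the threshold. Snap25 was lost without any 1 of RP tumours 1, 2, 4 and 7 and RPC tumours 1, 2, 3 and 5 (adjusted p 0.0528 to 0.0928). Stx5a was lost without the same tumours or RP 6 (0.0509 to 0.104), and Syn2 without any tumour but RP 7 and RPC 4 (0.0551 to 0.110).

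The remaining members that lead a family or came nearest to the threshold within it were not called. Stx16, a trans-Golgi syntaxin and the most abundant of its family in CPM, was at 138 to 239 CPM in RP and 148 to 229.7 CPM in RPC tumours (log2 fold change -0.02 ± 0.161 SE). Stx12, of recycling endosomes, was at 70.4 to 96.0 CPM in RP and 86.3 to 157 CPM in RPC tumours (0.40 ± 0.140 SE; adjusted p = 0.0614). Syt4, a granule synaptotagmin, was at 49.4 to 88.6 CPM and 27.2 to 79.0 CPM (-0.54 ± 0.238 SE; adjusted p = 0.124), and RPC tumour 4, at 79.0 CPM, was the only RPC value inside the RP range. Without RPC tumour 4 its log2 fold change was -0.83 and called (adjusted p = 0.0124). Stx12 was likewise called without RPC tumour 4 (0.48; adjusted p = 0.0345). Unc13d, which primes lytic granules in lymphocytes, was at 3.66 to 6.74 CPM and 2.38 to 5.07 CPM (-0.67 ± 0.243 SE; adjusted p = 0.0706), and was called without RP tumour 1, RP tumour 5 or RPC tumour 5 (-0.88 to -0.74). Snap23, the SNARE of cells without Snap25, moved by -0.36 ± 0.149 on the log2 scale (SE; adjusted p = 0.103), and was called without RP tumour 5 (-0.44; adjusted p = 0.0492). Rab3d, found on secretory granules of exocrine cells, had 0.10 ± 0.161 (SE) and Rab3c 0.37 ± 0.238 (SE).

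Proteins that work with these members were taken from 6 lists of textbook partners, 121 genes found and 114 tested, of which 21 were higher and 6 lower (23.7% called, against 18.3% of all tested genes, 9.64% higher and 8.61% lower). Scaffold proteins of the active zone, the site on the membrane where vesicles fuse, had 7 of 14 tested genes higher (50%) and none lower. All 14 had a log2 fold change above 0, with a median of 0.51 where that of all tested genes was -0.02. Ppfia2, a liprin, rose 6.94-fold (2.81 ± 2.48 to 20.1 CPM; log2 fold change 2.80 ± 0.479 SE; adjusted p = 0.00517). Erc2, Bsn (bassoon) and Rims1 rose by 1.02 ± 0.202, 0.80 ± 0.177 and 2.46 ± 0.585 on the log2 scale (SE; adjusted p = 0.00918, 0.0139 and 0.0178). Groups did not overlap in these 4 of the 14 genes, where 3.62% of all tested genes had every RPC tumour above. The highest RP and lowest RPC values lay close together for Rims1 (1.0777 and 1.0997 CPM), Erc2 (6.66 and 7.02 CPM) and Bsn (55.3 and 57.7 CPM). They lay farther apart for Ppfia2 (8.1021 and 12.965 CPM). Rims1 remained low, at 0.394 CPM in RP and 2.24 CPM in RPC tumours. Pclo (piccolo), the giant relative of bassoon, was at 87.6 and 92.2 CPM (log2 fold change 0.08 ± 0.168 SE).

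Regulators of SNAREs and of priming were divided, with 2 of 21 higher and 4 lower (28.6% called). Rph3a (rabphilin), a Rab3 effector, rose 7.03-fold from 0.887 to 6.25 CPM, and Doc2b, a calcium sensor of spontaneous release, 3.76-fold from 4.89 to 18.3 CPM (adjusted p = 0.00799 and 0.0156). Stxbp5l (tomosyn-2), an inhibitor of SNARE assembly, fell by 0.89 ± 0.172 and Stxbp3a, a partner of Stx4, by 0.59 ± 0.0997 on the log2 scale (SE; adjusted p = 0.00837 and 0.00482). Among Rab27 and Rab3 regulators 4 of 18 were higher and none lower (22.2% called, near the 18.3% of all tested genes): Rab27b, a granule GTPase, from 16.4 to 44.2 CPM (2.70-fold; adjusted p = 0.00775), with Myo5a, the myosin that carries granules, Dennd1a and Chml at log2 fold changes of 0.57, 0.40 and 0.51 (adjusted p = 0.0147, 0.0282 and 0.0407). The calls of Dennd1a and Chml were lost without any 1 of 5 tumours (RP 4 and 6, RPC 1, 2 and 5) and of 9 (all but RP 3, RP 5 and RPC 4). Rab27b stood at 46.6, 42.0, 24.6, 70.2 and 37.4 CPM in RPC tumours 1 to 5 and at 10.4 to 27.2 CPM in RP. RPC tumour 4, highest for Rab27b, lay inside the RP range for Sytl1, Sytl3 and Sytl4, and RPC tumour 3 lay inside the RP range for Rab27b. Rab27a, at 120.1 and 143 CPM, did not pass (0.25 ± 0.162 SE; adjusted p = 0.286).

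Of 22 tested vesicle membrane proteins, 3 were higher and 1 lower, and of 29 vesicle recycling genes, 4 were higher and 1 lower. These shares, 18.2% and 17.2%, are close to the 18.3% of all tested genes, so the counts are no result about these lists. Syngr3, a synaptogyrin, rose from 3.37 to 10.1 CPM (2.99-fold; adjusted p = 0.00197). Slc18a1, which loads monoamines into granules of endocrine cells, fell from 21.6 to 6.15 CPM (3.50-fold; adjusted p = 0.00197), and both were without overlap between groups. Slc18a2, its neuronal paralogue, was at 4.97 and 6.26 CPM (log2 fold change 0.33 ± 0.228 SE; adjusted p = 0.321). Svop and Tmem163 rose by 0.66 and 0.65 on the log2 scale (adjusted p = 0.0229 and 0.0212). The higher recycling genes were led by Amph (amphiphysin; 17.1 to 28.7 CPM; adjusted p = 0.00734) and the endophilin Sh3gl3 (6.02 to 14.1 CPM; adjusted p = 0.0174). The endophilin Sh3gl1, widely expressed, fell by 0.41 on the log2 scale (adjusted p = 0.0320), and Ston2 rose by 0.73 (adjusted p = 0.0381). Only Exoc4 rose among 10 exocyst genes (10% called; 0.57; adjusted p = 0.0394), and none fell. Calls were lost for Svop without RPC tumour 1 and for Tmem163 without RPC tumour 2 or 5. Those of Ston2 and Exoc4 were lost without any tumour but RP 1, RP 3 and RPC 4, and that of Sh3gl1 without any 1 of RP 2, 4 and 7 and RPC 1, 2 and 5.

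**Figure D5:**
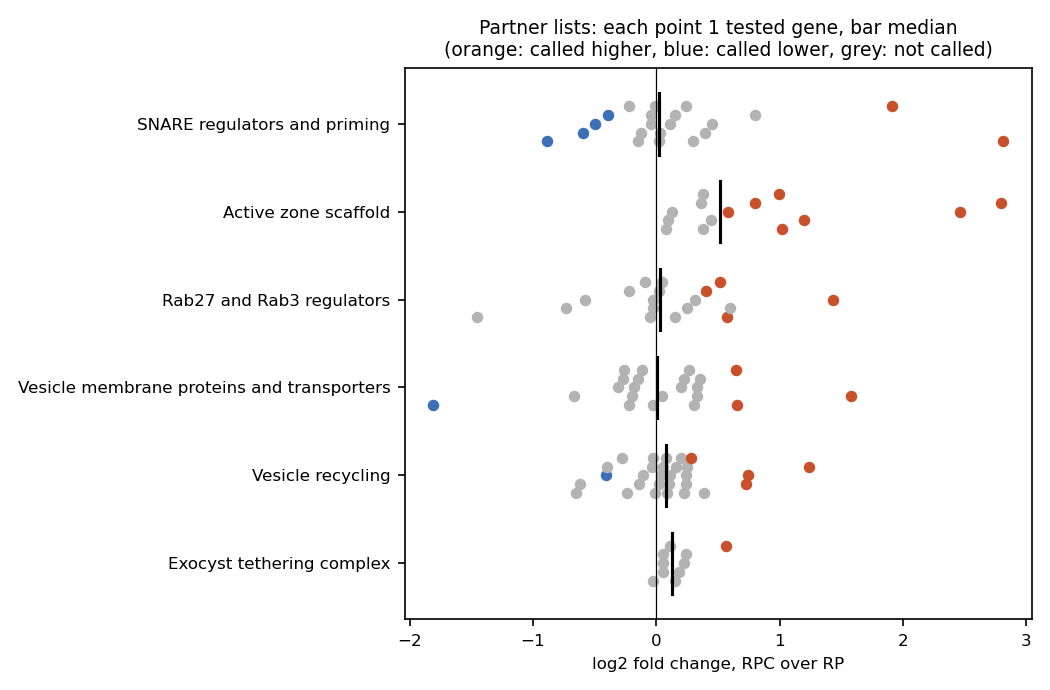
Log2 fold change, RPC over RP, of each tested gene of the 6 partner lists (points), with the list median (bar; orange, higher; blue, lower; grey, not called). All 14 active zone genes lie right of 0, with a median of 0.51, and the other 5 lists have medians of 0.01 to 0.13.

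The groups also differed in some markers of other cells, where 18.3% of all tested genes were called. The shares called of follicular (20%), C cell and neuroendocrine (23.1%), fibroblast (16.7%) and endothelial markers (14.3%) were near it. Those 4 counts are therefore no result about their lists. Neuron markers had 2 of 6 tested genes higher in RPC, Elavl3 and Prph, and none lower; their sum ran from 92.4 to 296 CPM in RP and from 185 to 489 CPM in RPC tumours. In none of the lists given here was a marker at 0 in all tumours. Adipocyte markers had 10 of 11 lower, with a sum of 75.2 to 2087 CPM in RP and 60.8 to 154 CPM in RPC tumours. Thyroid follicular markers had 2 of 10 lower, with a sum of 1641 to 9298 CPM in RP and 55.7 to 5755 CPM in RPC tumours. Of these 10, called or not, 9 had a log2 fold change below 0, and the median was -1.85. Schwann cell markers had 2 of 4 lower, with sums of 111.4 to 147 and 78.1 to 110.02 CPM. C cell and neuroendocrine markers had 2 of 13 higher and 1 lower, with sums of 97445 to 234905 CPM in RP and 26619 to 140444 CPM in RPC tumours. Of these 13, called or not, 10 had a log2 fold change below 0 and 3 above. Their median was -0.304, where that of all tested genes was -0.0163. Lymphocyte markers had 1 of 3 lower, Cd79a (5.06-fold; 9.47 to 38.2 CPM in RP and 2.93 to 4.22 CPM in RPC tumours), and sums of 17.6 to 43.6 and 7.37 to 11.1 CPM, which do not overlap. Endothelial markers had 1 of 7 and fibroblast markers 1 of 6 lower, with sums of 78.6 to 166 and 49.0 to 155 CPM, and of 529 to 3244 and 427 to 1619 CPM. None of 9 macrophage markers was called, and their sums were 283 to 1314 and 218 to 584 CPM. All tested markers of these 4 lists had a log2 fold change below 0. A stromal and immune score over these 4 lists together, used as a covariate, left 11 members called, where 13.4% of all genes were called. The part of the neuron, Schwann and C cell markers in the calls was not tested.

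For the adipocyte and follicular lists the calls were recomputed. With the adipocyte score as a covariate 1 member stayed called, Syt11 (log2 fold change 1.11; adjusted p = 0.0221), where 0.967% of all genes were called. With the follicular score none did, where 4 of all genes were called, and Cplx1 and Syt11 had log2 fold changes of 1.76 and 0.84 (adjusted p = 0.485 and 0.202). Without RP tumours 2, 4, 6 and 7, those with the most adipocyte RNA, none of 62 members was called and 40 of all genes were, and the log2 fold changes of Cplx1, Syt11 and Syt16 were 2.21, 1.12 and 1.22 (adjusted p = 0.152, 0.0740 and 0.171). That fit held 8 tumours in place of 12, so adipocyte content and the smaller number of tumours cannot be told apart in the lost calls. The adipocyte and follicular scores differ between the genotypes, so a score and the genotype can be separated only in part.

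Members varied among tumours of 1 genotype as well. RPC tumour 4 was the highest RPC tumour for 26 of 62 members and RPC tumour 2 the lowest for 28. Of the 18 called members, 8 had RPC tumour 4 inside the RP range, where the other RPC tumours had 1 or 2 inside. RPC tumour 4 also had the highest follicular score of RPC tumours, at -0.0194, and RP tumour 3 the lowest of RP tumours. With both left out, 22 members were called, where 27.6% of all genes were, and the log2 fold changes of Syt1 and Stx1a were 3.62 and 2.05 (adjusted p = 0.00105 and 0.00167). Leaving out single tumours moved the number of called members between 6 (without RPC tumour 2) and 19 (without RPC tumour 4). It was 7 without RP tumour 2 or 4, 8 without RP tumour 6 or RPC tumour 1 or 5, 10 without RPC tumour 3 and 11 without RP tumour 7. The share of all tested genes called ran from 7.08% (without RPC tumour 2) to 23.5% (without RP tumour 3). Cplx1, Snap91, Syt11, Syt16 and Vamp5 stayed called with each single tumour left out.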

How the data were processed

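RNA of 12 tumours (7 RP, 5 RPC, grouped by the genotype label) was analysed. TRIzol RNA was oligo(dT)-selected and made into libraries with an NEBNext Ultra kit, per the labels' protocols. Per the submitters' processing notes, bcl2fastq 1.8.2, TopHat2 2.0.12 and HTSeq 0.6.1 were used with mm9. The deposited values are raw counts per gene, 1 table per tumour. The sources used here give neither the annotation nor the strand setting, so a gene cannot be told from one that overlaps it, on either strand, and reads of close paralogues may be split or dropped. The 5 summary entries of the counter were left out of library sizes: reads in no gene (13.1% to 17.6%) and reads aligned to several places (10.9% to 18.5%) among them.

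The members were chosen by symbol and the lists by textbook role, with earlier results of these data known. In R 4.3.3 with edgeR 4.0.16, genes passing filterByExpr (minimum count 10) were scaled by TMM and compared with the robust quasi-likelihood F test on all 12 tumours, Benjamini-Hochberg adjusted over all tested genes. Genes with adjusted p under 0.05 were called. The SE is the size of the log2 fold change over the square root of F. The scripts were tested on simulated data. Exon lengths are those of GENCODE M21 protein-coding transcripts (GRCm38), matched by symbol; they are not of the counting annotation. At these depths 1 count is 0.0167 to 0.104 CPM, and this limit covers counting error alone. Libraries were compared within each group, and each pair differed by more than sampling noise.

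Members with values are those called, the core release genes, and in each family the highest and the uncalled one with the smallest p; in each partner list up to 4 called genes with the smallest p. Pclo, Rab27a, Slc18a2, Elavl3, Prph, Cd79a and Stx4a do not meet this rule: they were picked with their values in view. Alternatives were 2 other scalings, 2 other filters, DESeq2 1.42.0, limma 3.58.1 voom with sample weights, a block on the tumour number, 3 marker scores as covariates and each tumour left out. Chosen after seeing the data were leaving out RP tumour 3 with RPC tumour 4, leaving out 4 RP tumours rich in adipocyte markers, and leaving out Calca. Some genes that meet the rules are not reported here.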

Additional observations from a re-analysis of the deposited data

Results flagged for a closer look

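In 13 of 114 sets of values (each a described gene within 1 genotype), 1 tumour lay far from all others of its group. Chance marks about 1 in 20 such sets where values are normally distributed, which was not tested for these CPM values. RP tumour 3 accounts for 3 and RP tumour 1 for 4. In RP tumour 3 the values were Syt1 at 82.5 CPM (next highest RP tumour 8.18), Sv2c at 6.45 CPM (next 2.26) and Ston2, an endocytic adaptor, at 32.4 CPM (next 19.5). In RP tumour 1 they were Syt7 at 801 CPM (next 564), Stxbp5l at 282 CPM (next 187), Vamp1 at 21.7 CPM (next 16.8) and Sytl5 at 4.71 CPM (next 2.59).

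RP tumour 5 was highest of its group for Cplx1, at 3.26 CPM (next 0.937), and for Ppfia2, at 8.10 CPM (next 3.02). RP tumour 6 was highest for Rph3a, at 2.68 CPM (next 1.07), and RP tumour 7 for Vamp4, at 54.7 CPM (next 47.8). RPC tumour 2 was highest of the RPC group for Syt1, at 100.4 CPM (next 40.6), and for Stx12, at 157 CPM (next 104). Each of these 13 values was the highest of its group.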

How the results depend on the processing

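The direction of all 18 called members held under each of 26 alternatives, 275 of 468 values staying past the threshold and 193 not. These members were chosen for a difference in the same tumours, so a kept direction is no independent support. The main counts were 9 members higher and 9 lower, and 21 partner genes higher and 6 lower. With limma voom, which called 42.4% of all genes and 50% of the members, they were 16 and 15, and 39 and 11. The no-filter fit gave 3 members lower, and the stromal and immune score 5. With the follicular score all 4 counts were 0; with the adipocyte score they were 1 and 0, and 2 and 2; without the 4 adipocyte-rich RP tumours, 0 and 0, and 1 and 1. With each tumour left out in turn, the counts ran from 5 to 10 and 1 to 11, and from 12 to 26 and 3 to 7. DESeq2 called 25 members (40.3%) and 26.6% of all genes.

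Tumour numbers 1 to 5 occur in both groups. Deviations of same-numbered tumours from their group means correlated weakly or not at all (0.159, -0.056, -0.0455, 0.121 and -0.0431), and 1 of 5 correlated best with its own number. Such correlations cannot show whether these tumours share anything besides the number. With the replicate block on those 10 tumours, 2 members were higher (Cplx1, Syt11) and 0 lower, and 7 and 2 partner genes. In that fit 3.23% of the members and 3.12% of all genes were called. Without the block the counts were 4 and 1, and 11 and 3, where 8.06% of the members and 5.85% of all genes were called.

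Among the members reported here, reversals occurred only in uncalled ones, with log2 fold changes near 0 for most. With the follicular score they were Rab3c -0.0622, Stx12 -0.0592, Syp 0.0966, Syt1 -0.18, Unc13a -0.42 and Vamp3 -0.11; with the adipocyte score Cplx2 -0.0571, Sv2a -0.11, Unc13a -0.32 and Vamp2 -0.13; with the stromal score Rab3a -0.0940; with voom Stx16 0.16. Without the 4 adipocyte-rich tumours Cplx2 was -0.00074, Sv2a -0.11, Unc13a -0.31 and Vamp2 -0.12. Without RP tumour 3 and RPC tumour 4 together, Rab3d was -0.0411 and Stx16 0.0432. With the replicate block Sv2a was -0.0265, and without the block -0.0124, where Unc13a was -0.0675. Over single tumours left out, Rab3d ran from -0.0489 to 0.18, Stx16 from -0.11 to 0.0530, Sv2a from -0.0465 to 0.14 and Unc13a from -0.0411 to 0.22. The causes were not tested. Depth limits Cplx1 and Sv2b, which had 3 and 2 counts in the lowest RP tumours.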
